A study of Homo sapiens with 8 samples.

Results

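Immediate-early genes are those a cell switches on first after a stimulus, and the 10 taken here are FOS, FOSB, JUN, JUNB, JUND, EGR1, IER2, IER3, ATF3 and DUSP1. They were chosen by symbol, and all 10 were found among the 60664 genes listed at both sites. The question put to the data was whether the brief peroxide pulse that drives labelling shows in these transcripts at either site. The libraries come from APEX-seq in HEK293T, a transformed human embryonic kidney line grown in medium with fetal bovine serum. APEX2, a peroxidase modified for proximity labelling, attaches biotin to RNA in its vicinity once peroxide and a biotin-phenol substrate are supplied, and the biotinylated RNA is enriched on streptavidin beads.

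Of the 4 groups, the labelled NLS group held 2 libraries from cells with APEX2 in the nucleus, and the NLS control group held 2 libraries from the same kind of cells without labelling. The labelled OMM group held 2 libraries from cells with APEX2 at the outer mitochondrial membrane, and the OMM control group held 2 without labelling. All 8 libraries came from cells that expressed APEX2. The labels do not say which reagent the controls lacked, whether peroxide was among those they received, whether a line was 1 clone, or whether libraries of a group were separate cultures. The p-values therefore rest on replicate spread that may be technical only. NLS libraries were made from total RNA with a SMARTer kit, whereas OMM libraries used a TruSeq mRNA kit that takes poly(A) RNA. The sample titles also carry the word ribominus at NLS and trizol at OMM. Site, kit and any such difference in RNA preparation cannot be told apart. Labelled and control RNA alike went over the beads by the series description, and a count is a share of its library. In such bulk samples fewer cells holding a transcript and less of it per cell cannot be told apart, nor can less capture of a transcript and more capture of other RNAs.

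Total counts were 8039176 to 9531568 in the labelled NLS libraries and 20746393 to 21096586 in the NLS controls, against 34705126 to 52421161 and 35165227 to 41660431 at OMM. Levels are given as CPM, counts scaled to a common library size, and a floor of 3 counts (counting error only) was worth 0.142 to 0.373 CPM at NLS but 0.0572 to 0.0864 CPM at OMM. Replicates differed far more at OMM, where the biological coefficient of variation was 0.958 beside 0.166 at NLS. Among genes with a mean of 100 counts or more, 593 of 12694 in labelled OMM libraries and 533 of 12739 in OMM controls were at 0 counts in 1 library, whereas at NLS this held for 0 of 11433 and 0 of 11976. NEAT1, a paraspeckle RNA, averaged 1360 ± 118 CPM in labelled NLS libraries and 93.3 ± 9.39 CPM in NLS controls (SD, n = 2 each). MT-CO1, an mRNA made inside mitochondria, averaged 974 ± 35.7 and 5810 ± 1180 CPM in the same groups. In labelled OMM libraries and OMM controls, MT-CO1 averaged 2130 ± 678 and 8900 ± 2450 CPM, so its fall was not particular to NLS. NEAT1 averaged 22.2 ± 13.7 and 35.3 ± 21.5 CPM in those OMM groups. Among transcripts taken as typical of HEK293T, NEFM, NEFL and INA had at least 16.7 CPM in all 8 libraries, whereas PAX2 and LHX1 were low and had 0 counts in some OMM libraries. Of 10 markers of blood, vessel, connective tissue and liver cells, COL1A1 alone was abundant enough to be tested at either site.

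Growth factors and many stresses, oxidants among them, activate the ERK, JNK and p38 kinases. These lead to phosphorylation of factors already present, such as ELK1, which works with SRF, and CREB, so transcription starts without new protein synthesis. The products include subunits of AP-1, a dimer of FOS and JUN family proteins, and phosphatases such as DUSP1 that switch the kinases off again. The mRNAs are made in bursts and are quickly degraded, in part through AU-rich elements in their 3′ untranslated regions.

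RefSeq promoter windows (GRCh38.p14, from 250 bases before to 50 after a start) were found for 9 of the 10 genes, all but IER3. The letters TGACG are the core of the CREB and ATF site. They stood on either strand in 8 of these 9 genes and in 24.6% of all 35116 windows. The exception was ATF3, read from chr1:212565157-212565456 and chr1:212614768-212615067. Any start of ATF3 outside these windows was not examined, so a site there is not excluded. The full site TGACGTCA, which holds TGACG on both strands, was found in DUSP1 and JUND (2 of 9 genes, and 1.85% of all windows). The CArG box bound by SRF was found in 1 gene, EGR1, with 2 copies that begin 105 and 83 bases before the start, and in 1.29% of all windows. TGANTCA, the AP-1 site, was in 0 of the 9 genes and in 7.71% of all windows. A stretch of 210 bases that lies upstream of the start in both RefSeq and GENCODE 29 is shown for 4 genes that were lower in labelled NLS libraries, with TGACG (or CGTCA on the other strand) and CArG boxes in capitals. EGR1 is read from chr5:138465269-138465478 on the plus strand, JUNB from chr19:12791276-12791485 on the plus strand, DUSP1 from chr5:172771196-172771405 on the minus strand and JUND from chr19:18281623-18281832 on the minus strand.
EGR1: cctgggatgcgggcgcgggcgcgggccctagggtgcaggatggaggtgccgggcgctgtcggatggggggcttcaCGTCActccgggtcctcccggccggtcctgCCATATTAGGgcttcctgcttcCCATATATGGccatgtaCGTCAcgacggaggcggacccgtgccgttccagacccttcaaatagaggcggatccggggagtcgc
JUNB: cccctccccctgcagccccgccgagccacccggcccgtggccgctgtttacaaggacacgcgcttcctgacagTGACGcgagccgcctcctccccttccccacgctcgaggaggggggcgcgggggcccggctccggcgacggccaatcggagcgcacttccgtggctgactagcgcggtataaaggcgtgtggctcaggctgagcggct
DUSP1: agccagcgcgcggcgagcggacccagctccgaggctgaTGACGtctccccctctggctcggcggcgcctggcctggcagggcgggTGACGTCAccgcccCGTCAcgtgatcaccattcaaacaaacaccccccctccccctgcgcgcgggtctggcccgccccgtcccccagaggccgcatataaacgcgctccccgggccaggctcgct
JUND: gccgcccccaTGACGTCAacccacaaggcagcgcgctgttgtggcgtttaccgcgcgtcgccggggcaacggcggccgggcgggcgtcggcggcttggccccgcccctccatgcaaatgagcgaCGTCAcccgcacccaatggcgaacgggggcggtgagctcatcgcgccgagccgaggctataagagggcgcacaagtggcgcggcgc

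The pentamer ATTTA, the unit of AU-rich elements as written in DNA letters, was found in the 3′ untranslated region of 9 of the 10 genes in GENCODE 29 (GRCh38) and in 62% of 19659 protein-coding genes. At least 3 copies stood in 6 of the 10 genes and in 35.9% of all. IER3 had 6 copies, FOS 5, DUSP1 4, and FOSB, JUN and ATF3 3 each. JUNB had 2 copies, JUND 1, EGR1 1 and IER2 0. The longer form TTATTTATT was in FOS and DUSP1 and in 7.23% of all genes. The 30 bases with the most ATTTA copies are shown for the 3 genes with the most copies, with ATTTA in capitals. FOS is read from chr14:75282057-75282086 on the plus strand, IER3 from chr6:30743648-30743677 and DUSP1 from chr5:172768641-172768670, both on the minus strand.
FOS: ttgtgtttttaATTTATTTAttaagatgga
IER3: taattaatATTTAtatgtATTTAtgtacgt
DUSP1: ggctggtccttATTTATTTAacttcacccg

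The 10 genes are compact. All but ATF3, which spans 55444 bases, span 1356 to 7185 bases in GENCODE 29, and JUN, JUNB, JUND and IER2 have a single exon in the transcript used here. JUNB, JUND, IER2 and FOSB lie on chromosome 19, JUN and ATF3 on chromosome 1, EGR1 and DUSP1 on chromosome 5, FOS on 14 and IER3 on 6. Exons of JUNB, IER2 and IER3 overlap exons of genes on the other strand, over 14.2%, 30.8% and 26.5% of their bases. The strand setting of the counting is not given in the sources used here, so reads there are uncertain. The antisense gene within IER2 (ENSG00000267598) had 1 and 2 counts in labelled NLS libraries and 6 and 9 in NLS controls. IER3-AS1 had 5 and 3 counts in labelled NLS libraries and 13 and 28 in NLS controls. HOOK2, which shares 259 exon bases with JUNB, had 394 and 292 counts in labelled NLS libraries, against 296 and 420 in NLS controls. What part such reads have in the values of these 3 genes was not tested.

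In labelled nuclear libraries 8 of the 10 immediate-early transcripts had lower scaled levels than in the NLS controls, and 0 rose. The 8 fell at an adjusted p under 0.05 (edgeR's quasi-likelihood test, adjusted over all 20858 genes tested), and FOSB and IER2 did not pass. The share of all tested genes called lower was 28.5%, that of protein-coding genes was 39.8%, and that of protein-coding genes spanning under 10 kb was 50.8%. The shares called higher were 28.8%, 19.4% and 12.8%. The median log2 fold change of the 10 was -1.31, beside 0.14 for all tested genes, -0.26 for protein-coding genes and -0.75 for protein-coding genes under 10 kb. Both labelled libraries lay under both controls for 9 of the 10, beside 37.7% of all tested genes, and above both for 0 of the 10, beside 45.1%. Of 13856 protein-coding genes, 7008 lay under and 4342 above. Of the 2546 that span under 10 kb, 1586 lay under and 580 above. No test was made of the 10 against other genes. FOS and JUNB passed the filter on low counts through the controls, since 1 of their 2 labelled libraries was under its edge of 0.661 CPM, so that such genes could enter the test mainly as falls. Depth moved with the groups too, the labelled NLS libraries holding fewer counts than the controls, and its part in the result was not tested.

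**Figure D1:**
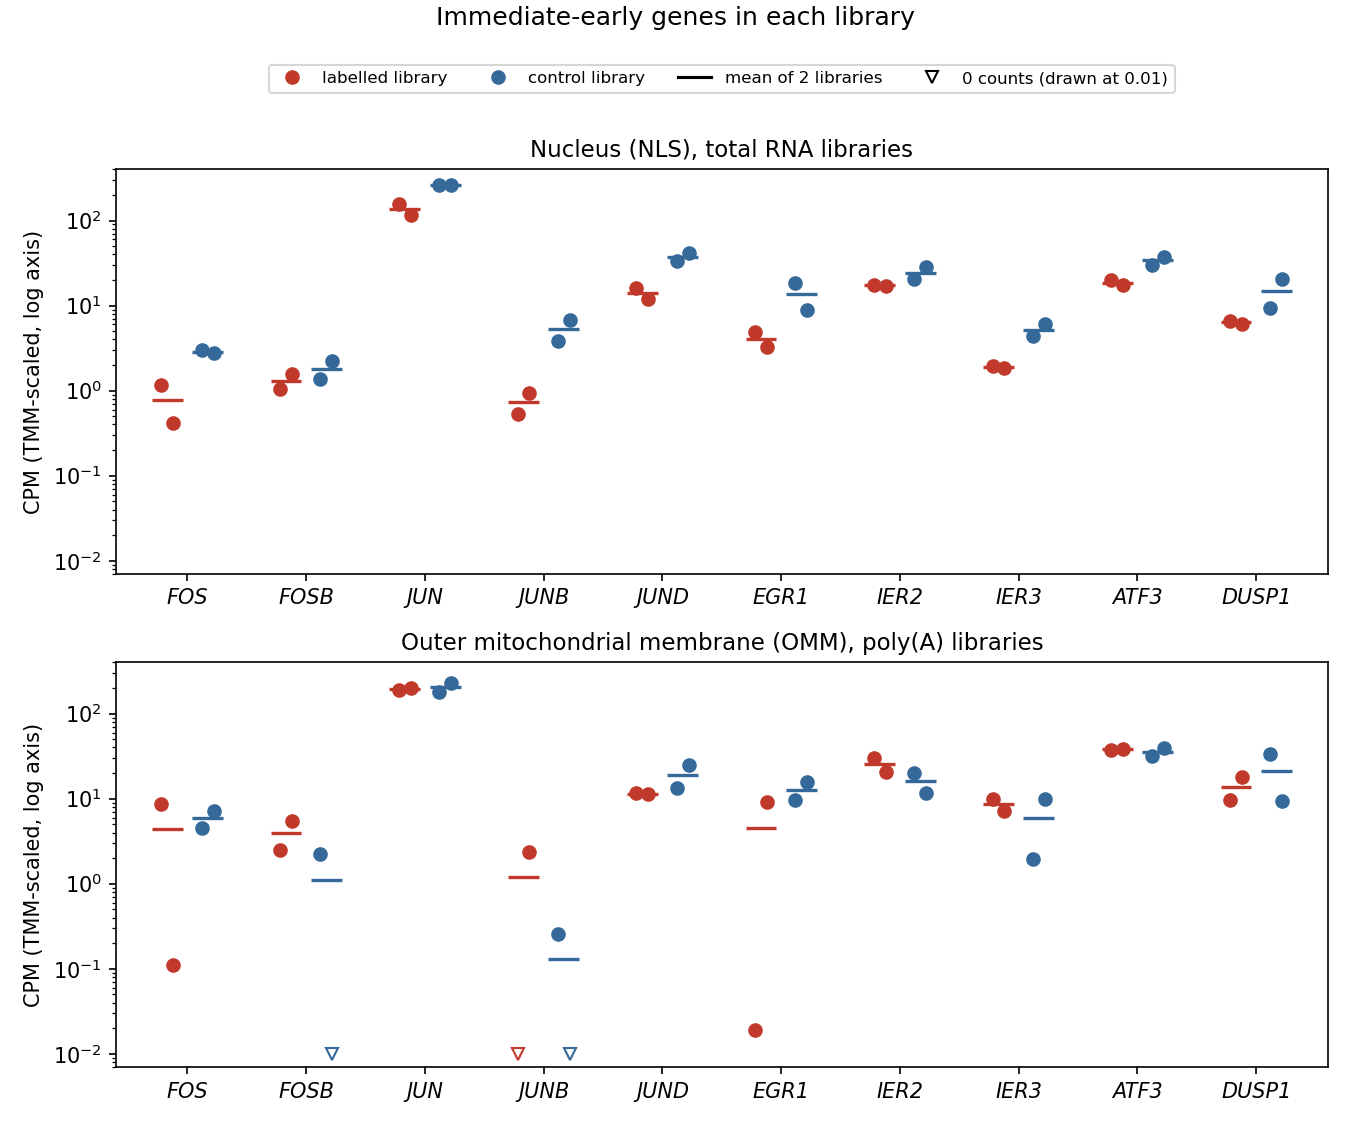
CPM of each gene in each library on a log axis, with labelled libraries (red) left of control libraries (blue), bars at the mean of 2 libraries and triangles for 0 counts. At NLS the red points lie under the blue ones for 9 genes, FOSB being the exception; at OMM the points overlap for most genes and FOS, EGR1, JUNB and FOSB are split within a group.

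The FOS family encodes AP-1 subunits that pair with JUN proteins. FOS had 1.15 and 0.415 CPM in labelled NLS libraries (13 and 4 counts), against 2.97 and 2.76 CPM in NLS controls. The groups did not overlap, and the second labelled library was near the floor. Its log2 fold change was -1.84 ± 0.68 (SE, adjusted p = 0.0488), just past the threshold, and DESeq2 gave -1.82 with an adjusted p of 0.114. FOSB, a close relative of FOS, had 1.06 and 1.56 CPM in labelled NLS libraries and 1.37 and 2.24 CPM in NLS controls. The groups overlapped, and the log2 fold change of -0.47 ± 0.69 did not pass (adjusted p = 0.584, 95% interval -2.06 to 1.12).

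The JUN family encodes the subunits that can pair with each other or with FOS proteins. JUN, the most abundant of the 10 per length, had 157 and 117 CPM in labelled NLS libraries and 264 and 262 CPM in NLS controls. Both labelled libraries were lower, and the log2 fold change was -0.94 ± 0.14 (adjusted p = 0.000695). JUNB, which often opposes JUN, had 0.530 and 0.934 CPM in labelled NLS libraries (6 and 9 counts) against 3.83 and 6.85 CPM in NLS controls. Its log2 fold change of -2.87 ± 0.58 was the lowest of the 10 (adjusted p = 0.00367). JUND, the member that many resting cells express steadily, had 16.1 and 12.1 CPM in labelled NLS libraries and 33.1 and 41.2 CPM in NLS controls. The groups were well apart, with a log2 fold change of -1.39 ± 0.20 (adjusted p = 0.000687). ATF3, a stress-induced repressor of the same bZIP class, had 19.9 and 17.5 CPM in labelled NLS libraries and 30.2 and 37.8 CPM in NLS controls. It fell by 0.86 ± 0.18 on the log2 scale (adjusted p = 0.00436).

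EGR1, a zinc-finger transcription factor, had 4.86 and 3.22 CPM in labelled NLS libraries and 18.6 and 8.81 CPM in NLS controls. The controls differed widely from each other, yet both lay above both labelled libraries, and the log2 fold change was -1.75 ± 0.42 (adjusted p = 0.00808). IER2, a nuclear regulator of transcription, had 17.7 and 17.2 CPM in labelled NLS libraries and 20.5 and 28.2 CPM in NLS controls. Both labelled libraries were lower, but the log2 fold change of -0.48 ± 0.20 did not pass (adjusted p = 0.0773). IER3, which acts on ERK signalling and cell survival, had 1.94 and 1.87 CPM in labelled NLS libraries and 4.40 and 6.04 CPM in NLS controls. It fell by 1.45 ± 0.43 on the log2 scale (adjusted p = 0.0210). DUSP1, the phosphatase that inactivates MAP kinases, had 6.54 and 6.13 CPM in labelled NLS libraries and 9.31 and 20.3 CPM in NLS controls. The labelled libraries were close to each other and the controls were not, and the log2 fold change was -1.22 ± 0.38 (adjusted p = 0.0249).

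The 4 single-exon genes (JUN, JUNB, JUND and IER2) had log2 fold changes from -2.87 to -0.48 and the 6 with introns from -1.84 to -0.47, so the ranges overlapped. DESeq2 called 6 of the 10 lower, losing FOS and IER3, and over all genes it called 5151 lower and 5630 higher. In the authors' deposited table the same 6 genes (JUN, JUNB, JUND, EGR1, ATF3 and DUSP1) had a p-value under 0.05. The deposited p-values match those of this DESeq2 rerun, so they are not a separate test. Without labelled library 1, and equally without labelled library 3, 5 genes were called, and FOS, IER3 and DUSP1 were not. An arm left with 1 library is assumed to vary like the other arm. Scaling by library size alone raised the median of all genes to 0.66 and left 4 of the 10 called, namely JUN, JUNB, JUND and EGR1. Over all genes this scaling called 3351 lower and 9122 higher. With library size alone FOSB and IER2 had log2 fold changes of 0.05 and 0.04, the other sign.

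**Figure D2:**
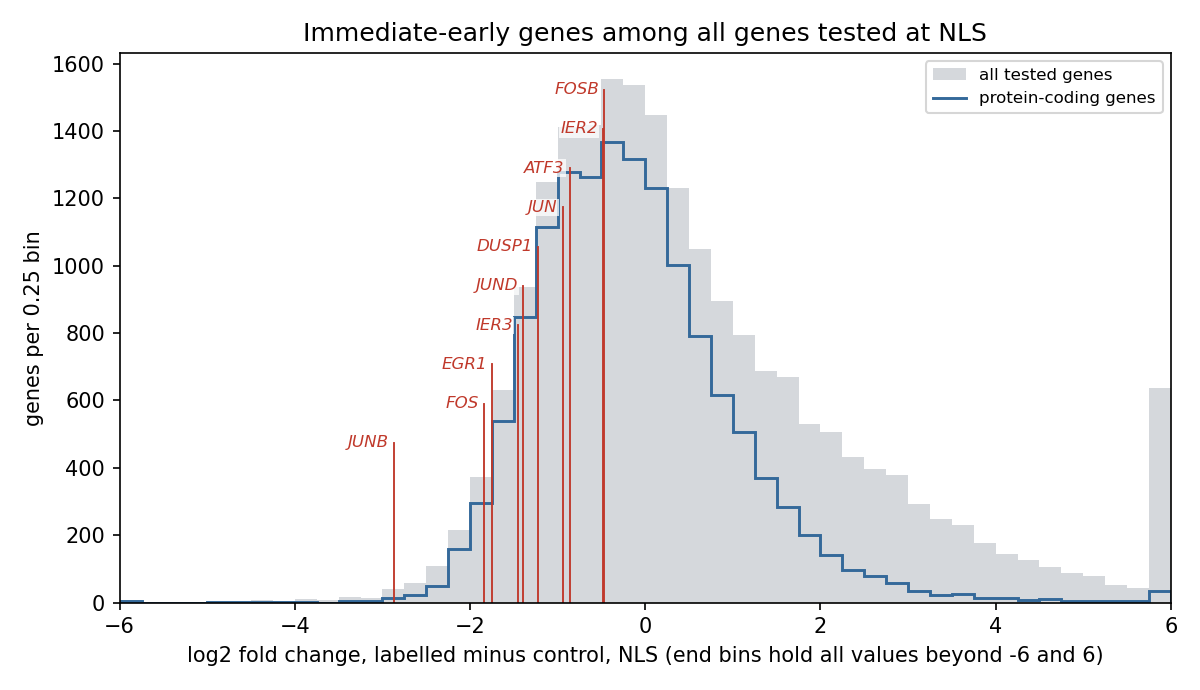
Histogram of log2 fold changes at NLS (labelled minus control) for all 20858 tested genes (grey) and for protein-coding genes (blue line), in genes per bin, with a red line at each immediate-early gene whose height has no meaning. All 10 lie on the negative side, from -2.87 for JUNB to -0.47 for FOSB (FOSB and IER2 change sign when scaled by library size alone), within the spread of protein-coding genes.

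At the outer mitochondrial membrane, 0 of the 9 genes tested passed in either direction by edgeR, and 0 had an unadjusted p under 0.05. Of all 14438 genes tested there, 0.139% were called higher and 0.0554% lower, and of protein-coding genes 0.16% and 0.048%, so edgeR made few calls for any kind of gene. Among protein-coding genes under 10 kb the shares were 0% and 0.229%. DESeq2 called 1000 genes higher and 873 lower, with 0 of the immediate-early genes among them. The median log2 fold change of the 9 was -0.06, beside 0.00 for all tested genes. The 2 labelled libraries lay under both controls for 2 of the 9 (EGR1 and JUND) and above both for 2 (FOSB and IER2), beside 22.5% and 21.3% of all tested genes. EGR1 and FOS passed the low-count filter here through the controls, and FOSB through the labelled libraries. In each, 1 library of the other arm was under the edge of 0.26 CPM. Such genes could thus enter the test mainly as falls (EGR1 and FOS) or as a rise (FOSB).

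JUN and ATF3 were measured most evenly at this site. JUN had 191 and 203 CPM in labelled OMM libraries and 180 and 229 CPM in OMM controls, and the groups overlapped. Its log2 fold change was -0.06 ± 0.23, with a 95% interval from -0.60 to 0.49. ATF3 had 37.3 and 38.9 CPM in labelled OMM libraries and 31.8 and 39.3 CPM in OMM controls, again overlapping. Its log2 fold change was 0.10 ± 0.43, with an interval from -0.89 to 1.09. A change of JUN by 1 log2 unit in either direction lies outside its interval, whereas the intervals of the other 8 genes reach past 1 log2 unit on at least 1 side.

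Other genes were split between replicates. FOS had 8.59 and 0.110 CPM in labelled OMM libraries (455 and 4 counts) and 4.58 and 7.23 CPM in OMM controls. EGR1 had 0.0189 and 9.10 CPM in labelled OMM libraries (1 and 330 counts) and 9.69 and 15.9 CPM in OMM controls. The labelled library low in FOS was not the one low in EGR1, and the intervals of their log2 fold changes ran from -5.79 to 4.92 for FOS and from -6.08 to 3.10 for EGR1. FOSB had 2.47 and 5.49 CPM in labelled OMM libraries, against 2.21 CPM and 0 counts in OMM controls. Both labelled libraries were higher, with a log2 fold change of 1.84 ± 3.49. JUNB had 0 and 86 counts in labelled OMM libraries and 10 and 0 in OMM controls, and was not tested.

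JUND had 11.6 and 11.2 CPM in labelled OMM libraries and 13.3 and 25.0 CPM in OMM controls, a log2 fold change of -0.75 ± 0.75. IER2 had 30.4 and 20.7 CPM in labelled OMM libraries and 20.3 and 11.7 CPM in OMM controls, a log2 fold change of 0.68 ± 0.62 in which the groups almost touched. IER3 had 9.88 and 7.25 CPM in labelled OMM libraries and 1.93 and 9.82 CPM in OMM controls, and DUSP1 had 9.58 and 17.8 CPM in labelled OMM libraries and 33.3 and 9.40 CPM in OMM controls. For IER3 and DUSP1 the control values spanned more than the difference between the groups, with log2 fold changes of 0.54 ± 1.57 and -0.64 ± 0.81. Without labelled library 3, EGR1 alone passed, with a log2 fold change of -9.19 (adjusted p = 0.0273), and the labelled group was then the library with 1 count.

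The effects at the 2 sites were set against each other in a model of all 8 libraries with a term for site by labelling. All 10 differences (NLS effect minus OMM effect) were negative. So were 11106 of all 23178 genes tested, 8849 of 14598 protein-coding genes and 1700 of the 2750 that span under 10 kb. The sign of EGR1 turned positive by DESeq2 (0.12) and with library size alone (0.15), and JUNB had not been tested at OMM by itself. By edgeR 0 of the 10 passed, and 2 had an unadjusted p under 0.05. DESeq2 called 0 of the 10 too, beside 2290 genes higher and 2030 lower. Of all 23178 genes tested, 6.73% were called lower and 1.41% higher in this term, against 10.5% and 1.49% of protein-coding genes and 9.93% and 1.13% of those under 10 kb. The median difference was -1.08 for the 10 and 0.11 for all. JUN had the difference with the narrowest error, -0.91 ± 0.26 (unadjusted p = 0.0108, adjusted p = 0.0905), followed by ATF3 with -0.98 ± 0.35 (unadjusted p = 0.0272, adjusted p = 0.159). The interval of IER2, from -2.63 to 0.28, held 0, as did those of FOS, FOSB, JUNB, JUND, EGR1, IER3 and DUSP1. The joint fit shares 1 estimate of spread between the tight NLS and the loose OMM libraries, and in it 1 gene, JUN, was still called lower at NLS. Without OMM control library 3 FOSB passed (difference -10.25, adjusted p = 0.0295), and without labelled OMM library 3 EGR1 passed with the other sign (7.31, adjusted p = 0.0214).

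**Figure D3:**
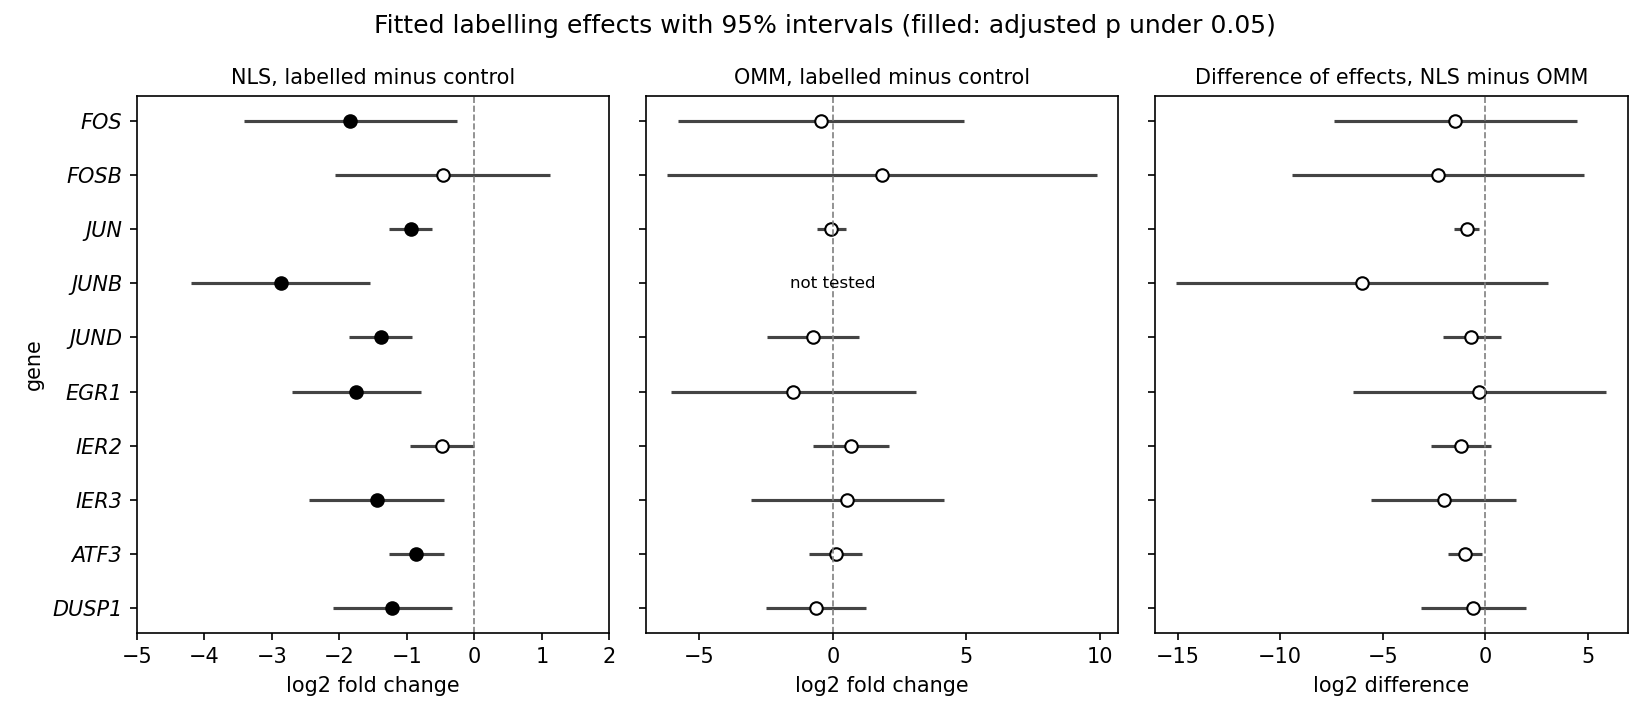
Log2 fold change of each gene at NLS and at OMM (labelled minus control) and the difference of the effects, with 95% intervals; filled points had an adjusted p under 0.05, and the x axes differ in range. At NLS 8 points are filled and all 10 lie left of 0, where FOSB and IER2 do not stay when scaled by library size alone. At OMM the intervals of JUN and ATF3 are the narrowest, though that of ATF3 runs from -0.89 to 1.09. Those of FOS, FOSB and EGR1 span several log2 units.

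Levels were compared between genes per kilobase of merged exons. Merged exons can exceed the transcript used here, with 4040 against 2033 bases for ATF3 and 5553 against 3775 for FOSB. For JUN, JUNB and JUND they do not. The order by transcript length was not examined, so the order below, overlaps included, holds for merged exons only. In labelled NLS libraries JUN led with 38.6 ± 7.91 CPM per kb, followed by JUND with 7.57 ± 1.49, IER2 with 5.68 ± 0.0988, ATF3 with 4.63 ± 0.407 and DUSP1 with 3.14 ± 0.144 (SD, n = 2 each), none of which overlapped the next. IER3 (1.41) and EGR1 (1.29) overlapped, as did JUNB (0.402), FOS (0.241) and FOSB (0.236) in turn. In NLS controls JUN had 74.3 ± 0.445 and JUND 17.8 to 22.1 CPM per kb, each apart from the next, whereas ATF3 (8.41), IER2 (7.92), DUSP1 (7.32), EGR1 (4.36), IER3 (3.85) and JUNB (2.93) each overlapped its neighbour. FOS with 0.885 and FOSB with 0.326 CPM per kb were the lowest and stood apart. JUN also led at OMM, with 55.6 ± 2.53 CPM per kb in labelled libraries and 57.8 ± 9.91 in controls. In labelled OMM libraries ATF3 (9.44), IER2 (8.32), DUSP1 (6.79), IER3 (6.32) and JUND (6.11) followed, and in OMM controls DUSP1 (10.6), JUND (10.3) and ATF3 (8.80), each overlapping its neighbour. EGR1, FOS, FOSB and JUNB filled the last 4 places in labelled OMM libraries, at 0.651 to 1.45 CPM per kb, and in OMM controls, at 0.0706 to 4.08.

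Further early-response genes mostly lay low at NLS, with 40 negative log2 fold changes and 8 positive. Among protein-coding genes under 10 kb, 1797 were negative and 749 positive, and 12.8% were called higher. Of 55 listed, 48 were tested, 23 fell and 1 rose, with a median log2 fold change of -0.73, and 47.9% called lower is near the 50.8% of protein-coding genes under 10 kb. RHOB, a small GTPase, fell to 20.8 ± 2.15 CPM in labelled NLS libraries, against 83.9 ± 2.56 CPM in NLS controls (log2 fold change -2.01 ± 0.13, adjusted p = 2.21e-05). GADD45B, a stress-response protein, and IER5L fell by 1.98 ± 0.56 and 1.95 ± 0.56 on the log2 scale. AREG, the growth factor amphiregulin, had 1 and 0 counts in labelled NLS libraries and 20 and 33 in NLS controls, a ratio of 0.0314 (95% counting interval 0.000781 to 0.183). Both labelled libraries were under the filter edge of 0.661 CPM, so AREG could enter the test only as a fall. MAFF, a small MAF protein, was the gene that rose, with 14 and 16 counts in labelled NLS libraries and 2 and 3 in NLS controls, a ratio of 9.99 (counting interval 3.84 to 33.0). Its controls were under the filter edge, so it could enter only as a rise. No wider gene was called higher without the low-count filter, under the stricter one, or without labelled library 1 or 3. The smallest falls were those of GADD45A, a partner of GADD45B (-0.56 ± 0.17), PPP1R15A, which directs a phosphatase to the initiation factor eIF2α (-0.59 ± 0.20), and ERRFI1, a brake on the EGF receptor (-0.66 ± 0.15). At OMM 42 of the 55 were tested and 0 passed by edgeR, whereas DESeq2 called 1 higher and 5 lower.

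The kinases and factors that induce these genes went both ways at NLS, as protein-coding genes did. Of 30 inducers 15 fell and 5 rose (median log2 fold change -0.28), and of 14 tested bZIP partners 6 fell and 2 rose (median -0.60). The shares lower, 50% and 42.9%, lie near the 39.8% of protein-coding genes. RPS6KA5, the kinase MSK1 that phosphorylates CREB, averaged 85.2 ± 0.202 CPM in labelled NLS libraries and 24.9 ± 5.81 CPM in NLS controls (SD, n = 2 each), and rose by 1.77 ± 0.17 on the log2 scale (adjusted p = 7.71e-05). BRAF, a kinase upstream of ERK, rose by 1.16 ± 0.10. ATF4, the activator of the integrated stress response, had 279 and 255 CPM in labelled NLS libraries and 664 and 828 CPM in NLS controls, a log2 fold change of -1.48 ± 0.13, and CEBPB gave -1.33 ± 0.25. At OMM 0 of 29 inducers and 0 of 14 partners passed by edgeR.

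Lists of 2 other stress responses also lay low at NLS. Of 25 heat-shock genes 23 fell and 0 rose, with a median log2 fold change of -1.51, and all 25 were negative. Of 22 antioxidant genes of the NRF2 type 19 fell and 0 rose at the threshold, with a median of -1.23. The other 3 of the 22 had positive log2 fold changes, with both labelled libraries above both controls. The median of the immediate-early genes was -1.31. The shares lower were 92% and 86.4%, beside 39.8% of protein-coding genes and 28.5% of all tested genes. HSPA1A, whose reads are hard to tell from those of its near-identical copy HSPA1B, gave -2.07 ± 0.41, and HSF1, the activator of heat-shock genes, gave -0.43 ± 0.14. FTL, the ferritin light chain, gave -2.60 ± 0.15 and SQSTM1, an autophagy receptor, -0.40 ± 0.13. The 3 lists were not tested against each other.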

How the data were processed

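Read counts per gene were deposited by the authors, and per the submitters' processing notes Trimmomatic, STAR, HTSeq, SAMtools, bedtools and DESeq2 were used with GRCh38.p13 and hg38 as builds. Tool versions and strand options are not given in the labels or notes. The authors also deposited log2 fold changes of labelled over control. The deposited p-values lay within 1% of DESeq2's adjusted p in a rerun on the counts for 100.00% of genes at both sites. Columns were assigned by site and arm from their names. Libraries are called by the numbers in those names (NLS 1 and 3 in both arms, labelled OMM 2 and 3, OMM controls 3 and 4), which differ from the sample titles. The tables held 6 further columns that matched no sample and were not used.

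Counts were tested with edgeR 4.0.16 (R 4.3.3) by the robust quasi-likelihood F test, two-sided, after filterByExpr (minimum count 10) and TMM scaling, each site apart and jointly for the difference of sites. Adjustment was by Benjamini-Hochberg over every gene tested (threshold 0.05). CPM values use TMM-scaled library sizes, and the SE is the size of the fold change over the square root of F. The scripts were tested on data simulated with a spread near that of NLS for both sites, which does not cover the wider spread at OMM. DESeq2 1.42.0, other scalings, filters, a joint fit, a replicate block and leaving out each library were alternatives. The smallest exact permutation p for 2 against 2 is 0.333, so no such test was made. No pair of replicates agreed within sampling noise (chi-square per degree of freedom 4.98 to 229). Gene spans and exons came from GENCODE 29, in which 58396 of the 60664 identifiers were found. The gene sets were chosen with earlier results of these data known. All 10 immediate-early genes are described, and of the other lists the highest and lowest fold changes past the threshold at NLS are named (4 each for early-response genes, 2 each for inducers with partners, 1 each for the other 2 lists). A further marker gene of the cell line is not reported here.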

Additional observations from a re-analysis of the deposited data

How the results depend on the processing

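Depth limits FOS, FOSB, JUNB and IER3 at NLS, which had under 30 counts in each labelled library, and disagreement between replicates limits OMM. JUN was called lower at NLS under all 12 alternatives, and JUND and EGR1 under 11 of 12 and JUNB under 10 of 11, each lost in the fit of all 8 libraries. ATF3 was called under 10 of 12, IER3 and DUSP1 under 7 of 12 and FOS under 3 of 11. The cause of the changes below was not tested unless stated.

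At NLS 5999 genes were called higher and 5945 lower. With library size alone the counts were 9122 and 3351, with 4 of the 10 immediate-early genes (members) lower and with 4 wider early-response genes higher and 13 lower. FOSB (0.05) and IER2 (0.04) then changed sign. Upper-quartile factors gave 3 wider genes higher, and no filter, the stricter filter and the replicate block each gave 0. One fit of all 8 libraries, which shares the wide OMM spread, gave 212 genes higher and 2180 lower, 1 member lower, and 0 wider genes higher and 2 lower. Leaving out 1 library gave 3077 to 8425 genes higher and 4520 to 6953 lower, 5 to 9 members lower, and 0 to 3 wider genes higher and 15 to 36 lower. Leaving out labelled library 1 left 5 members, as did leaving out labelled library 3. IER2 passed without control library 1 (-0.70, adjusted p = 0.00033 by edgeR). In every leave-out the lone library adds nothing to the spread, which then comes from the pairs that remain. Without control library 1 that is the labelled pair, and 7771 genes were higher and 6953 lower.

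At OMM 20 genes were called higher and 8 lower. DESeq2 gave 1000 and 873 and called 1 wider gene higher and 5 lower. Library size alone gave 48 and 16, no filter 321 and 145, the stricter filter 38 and 15, the fit without robust estimation 1 and 0, and one fit of all 8 libraries 199 and 101. Upper-quartile factors gave 21 lower. Leaving out 1 library gave 128 to 335 higher and 76 to 279 lower, 0 to 1 members lower and 0 to 1 wider genes lower. The log2 fold change of JUN was 0.02 with library size alone. Over the leave-outs it ran from -0.22 to 0.14, that of FOS from -5.70 to 0.55, IER3 -0.20 to 2.16, ATF3 -0.05 to 0.27 and DUSP1 -1.28 to 0.54.

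For the difference of sites 326 genes were higher and 1561 lower. DESeq2 gave 2290 higher, no filter 676 and the stricter filter 516. Library size alone gave 584 lower and upper-quartile factors 883. The replicate block gave 69 higher and 789 lower. Leaving out 1 library gave 0 to 1454 higher and 0 to 2748 lower, both 0 without either NLS control, and 0 to 1 members in each direction. EGR1 was 0.12 by DESeq2 and 0.15 with library size alone. Over the leave-outs EGR1 ran from -1.27 to 7.31, DUSP1 from -1.78 to 0.11, FOS from -2.43 to 3.82 and JUNB from -10.89 to 2.07.

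The NLS columns share the numbers 1 and 3 between arms. Deviations of same-numbered NLS libraries had a correlation of -0.02 over genes. With 2 libraries per arm this cannot show whether same-numbered libraries also shared a culture or a batch, and the labels do not say. The replicate block at NLS left 7 members lower, FOS being lost (-1.96, adjusted p = 0.0773 by edgeR). At OMM no replicate block could be fitted, because the arms share a single column number.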
